A study of Mus musculus with 36 samples.

Results

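The data described here are the transcript levels of 9 mouse genes of the natural killer (NK) gene complex in NK cells. They are the 4 NKR-P1 receptor genes Klrb1a, Klrb1b, Klrb1c and Klrb1f, the genes Klre1, Klri1 and Klri2 of the KLRE and KLRI receptors, and Clec2d and Clec2i, which encode Clr proteins. The genes were taken by symbol from 4 deposited tables of transcripts-per-million values (TPM), a measure scaled to transcript length and library size. All 9 were found in each table, among 32940 rows in the table of sorted subsets and 56923 rows in each of the others, and all 9 passed the minimum mean of 1 TPM in the 3 tables that could be tested. The series held 36 libraries in 12 groups of 3, all from NK cells of C57BL/6 mice, either wild type (WT, B2m+/+) or B2m-/- (KO). B2m encodes the light chain that MHC class I molecules need at the cell surface. In 6 groups, CD27-CD11b+ splenic NK cells of WT or KO mice had been sorted by 3 inhibitory receptors. The TP label stands for cells positive for Ly49C, Ly49I and NKG2A. SP stands for Ly49I alone, and TN for cells negative for all 3 receptors. Another 2 groups were NK cells purified from WT splenocytes after 22 h of culture in ionomycin, an ionophore that lets calcium into cells, or in its vehicle. A further 3 groups were WT splenic NK cells after 48 h, either unstimulated in medium or on plates coated with a pair of antibodies, one to NKp46 and the other to NKG2D or to DNAM-1, all of them activating receptors. The last group was CD27-CD11b+ NK cells from subcutaneous MC38 tumours lacking B2m. These cells were taken 10 days after inoculation from C57BL/6 mice whose genotype label reads WT. Groups were compared within a table.

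NKR-P1 proteins are C-type lectin-like receptors on NK cells, and they recognise Clr proteins, which are encoded beside them in the same gene complex. Klrb1b encodes the inhibitory NKR-P1B, which carries a tyrosine motif that recruits the phosphatase SHP-1 and binds Clr-b, the product of Clec2d, a protein found on most blood cells. Klrb1c encodes NKR-P1C, the NK1.1 antigen by which NK cells of C57BL/6 mice are identified, an activating receptor that signals through the Fc receptor gamma chain. Klrb1a and Klrb1f encode activating members, and NKR-P1F binds Clr-g, the product of Clec2i. KLRE1 pairs with KLRI1, which has inhibitory motifs, or with KLRI2, which lacks them, so that the same partner serves an inhibitory and an activating receptor.

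The genotype labels were checked on B2m itself, which lay between 73.9 and 128 TPM in the 9 KO libraries and between 2915 and 3419.6 TPM in the 9 WT libraries of the same table. The NK cell markers Ncr1, Eomes, Tbx21, Itgam, Prf1, Gzma, Nkg7 and Il2rb summed to 17062 to 20734 TPM in the sorted subsets, and none was at 0 in any of the 36 libraries. Within a group, libraries correlated at r = 0.904 to 0.965 over all genes tested in the subset table, 0.804 to 0.899 in the ionomycin table, 0.857 to 0.953 in the antibody table and 0.808 to 0.844 in the tumour table. The KO TP libraries stood apart in markers of other cells. Their summed neutrophil markers were 61.0 to 218 TPM, against at most 5.85 in the other sorted subsets, and their summed B or plasma cell markers were 404 to 683 TPM, against 167 to 337 in the other sorted subsets. For 6 of the 9 antibody libraries the sample title and the named table column gave different groups, and the column names were followed here. Each table carried a single batch date in the labels, so groups within a table shared their batch.

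The upstream sequences of Klrb1b and of its nearest relatives Klrb1a and Klrb1c are shown because Klrb1b differed between the sorted subsets while its 2 relatives, encoded close by, did not pass that test. In the RefSeq gene order (GRCm38.p6) the 9 genes follow one another on chromosome 6 as Klrb1a, Klrb1c, Klrb1b, Clec2i, Klrb1f, Clec2d, Klre1, Klri1 and Klri2, with other genes between. Klrb1c lies directly beside Klrb1b, and Klri1 directly beside Klri2. The RefSeq windows of 250 bases before to 50 bases after the gene start were found for 8 of the 9 genes, all but Klri2. Each sequence below is 5′ to 3′ on the minus strand, where these 3 genes are transcribed. Capitals mark matches on either strand to the letters GGAAA (the core of NFAT sites, written TTTCC on the other strand) and TGTGGT (the core of RUNX sites).
Klrb1a chr6:128622885-128623184: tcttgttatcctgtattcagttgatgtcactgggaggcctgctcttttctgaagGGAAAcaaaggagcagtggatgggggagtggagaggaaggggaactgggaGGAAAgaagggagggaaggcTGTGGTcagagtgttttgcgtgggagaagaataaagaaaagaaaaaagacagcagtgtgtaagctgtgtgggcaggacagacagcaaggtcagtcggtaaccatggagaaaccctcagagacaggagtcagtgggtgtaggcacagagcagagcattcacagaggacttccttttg
Klrb1b chr6:128826266-128826565: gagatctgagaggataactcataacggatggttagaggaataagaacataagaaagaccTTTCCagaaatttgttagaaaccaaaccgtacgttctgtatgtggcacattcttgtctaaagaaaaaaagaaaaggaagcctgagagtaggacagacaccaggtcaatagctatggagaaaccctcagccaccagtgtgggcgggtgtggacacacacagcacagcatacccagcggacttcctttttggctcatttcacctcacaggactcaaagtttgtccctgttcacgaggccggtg
Klrb1c chr6:128788592-128788891: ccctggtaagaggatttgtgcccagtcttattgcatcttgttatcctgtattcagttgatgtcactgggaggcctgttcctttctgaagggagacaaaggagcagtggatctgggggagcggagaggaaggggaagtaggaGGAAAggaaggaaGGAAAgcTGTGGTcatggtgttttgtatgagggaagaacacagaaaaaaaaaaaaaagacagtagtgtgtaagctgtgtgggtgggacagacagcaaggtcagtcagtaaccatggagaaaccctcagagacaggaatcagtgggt
The Klrb1a and Klrb1c windows aligned over 265 columns with 89.1% identity. Klrb1b aligned with Klrb1a over 140 columns at 72.1% identity and with Klrb1c over 78 columns at 73.1% identity. Each window is placed by its annotated gene start, so the aligned lengths also depend on where that start is set. GGAAA was present in the windows of all 8 genes, and in 61.3% of 32851 promoter windows of the same length. TGTGGT was present in the windows of Klrb1a, Klrb1c and Klre1, and in 16.8% of all windows. All motifs were searched on both strands, and the matches printed do not overlap. The AP-1 letters TGANTCA, held by 7.81% of windows, were in none of the 8, and the T-box core TCACAC, held by 14.5%, was in Klre1 alone among them. These matches describe letters in a window, and binding was not measured.

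Related genes can also share reads. Of all 50-base windows in the GENCODE M21 transcripts of Klrb1b, 27.2% occurred in another gene's transcripts, most of them in Gm44511, an annotated gene model that runs across Klrb1c and Klrb1b. The shares were 17% for Klrb1c, 9.92% for Klrb1a, 5.83% for Klri1, 4.13% for Clec2i, 2.77% for Klri2, 1.98% for Clec2d, 0.308% for Klre1 and 0% for Klrb1f. The levels of Klrb1b and Klrb1c therefore depend on how the authors' quantification split reads with that model, and they are given with that uncertainty. The model's own row was read by its identifier in the tables of cultured and tumour cells. No such row was found in the table of sorted subsets, so the model's level beside Klrb1b could not be given there.

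Klrb1b was the member that varied most among the sorted subsets, and its level was highest in the cells with all 3 inhibitory receptors and lowest in the cells with none. In WT mice its TPM in the 3 libraries of each group were 308, 314 and 385 for TP, 163, 151 and 153 for SP and 135, 109 and 126 for TN. In KO mice they were 727, 763 and 639 for TP, 347, 411 and 439 for SP and 215, 235 and 223 for TN. Within each genotype the 3 subsets did not overlap. The WT means were 336 ± 43.0, 156 ± 6.74 and 123 ± 13.3 TPM (SD, n = 3) in TP, SP and TN, and the KO means were 709.9 ± 63.7, 399 ± 47.2 and 224 ± 10.0 TPM. Differences were tested with limma on log2(TPM + 1), with p-values adjusted over all 12018 genes tested by the Benjamini-Hochberg method and called at an adjusted p under 0.05. On this scale Klrb1b fell by 1.44 in WT TN against WT TP cells (95% interval -1.67 to -1.20, adjusted p = 5.14e-07) and by 1.10 in WT SP against WT TP cells (adjusted p = 4.92e-05). In KO mice it fell by 1.66 in TN against TP (95% interval -1.89 to -1.42, adjusted p = 8.64e-08) and by 0.83 in SP against TP cells (adjusted p = 0.00111). The step from SP to TN was a fall of 0.82 in KO mice (adjusted p = 0.00653), a call that was lost without limma's intensity trend (adjusted p = 0.0739) and with only these 2 groups in the fit (adjusted p = 0.0502). In WT mice the same step was -0.34 and did not pass (adjusted p = 0.217). In these bulk libraries, fewer cells carrying a transcript and less of it per cell cannot be told apart. An exact permutation test of 3 libraries against 3 cannot give a p below 0.1, so single comparisons rest on the spread that limma pools over genes and groups.

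Klrb1b and Klri2 were the members called in comparisons of subsets, and no other member was. Of the 9 members, 2 were called in WT TN against WT TP cells, where 1.31% of all genes tested were called. The same 2 were called in WT SP against WT TP (0.191% of all genes), in KO TN against KO TP (0.524%) and in KO SP against KO TP (0.2%). The TN and SP comparisons of a genotype share its TP libraries. In KO TN against KO SP, 1 member was called, Klrb1b, against 0.0416% of all genes. In WT TN against WT SP, limma called 0 of the 9 members, against 0.383% of all genes. An unadjusted p under 0.05 was reached there by 5 members and by 12.1% of all genes.

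**Figure D1:**
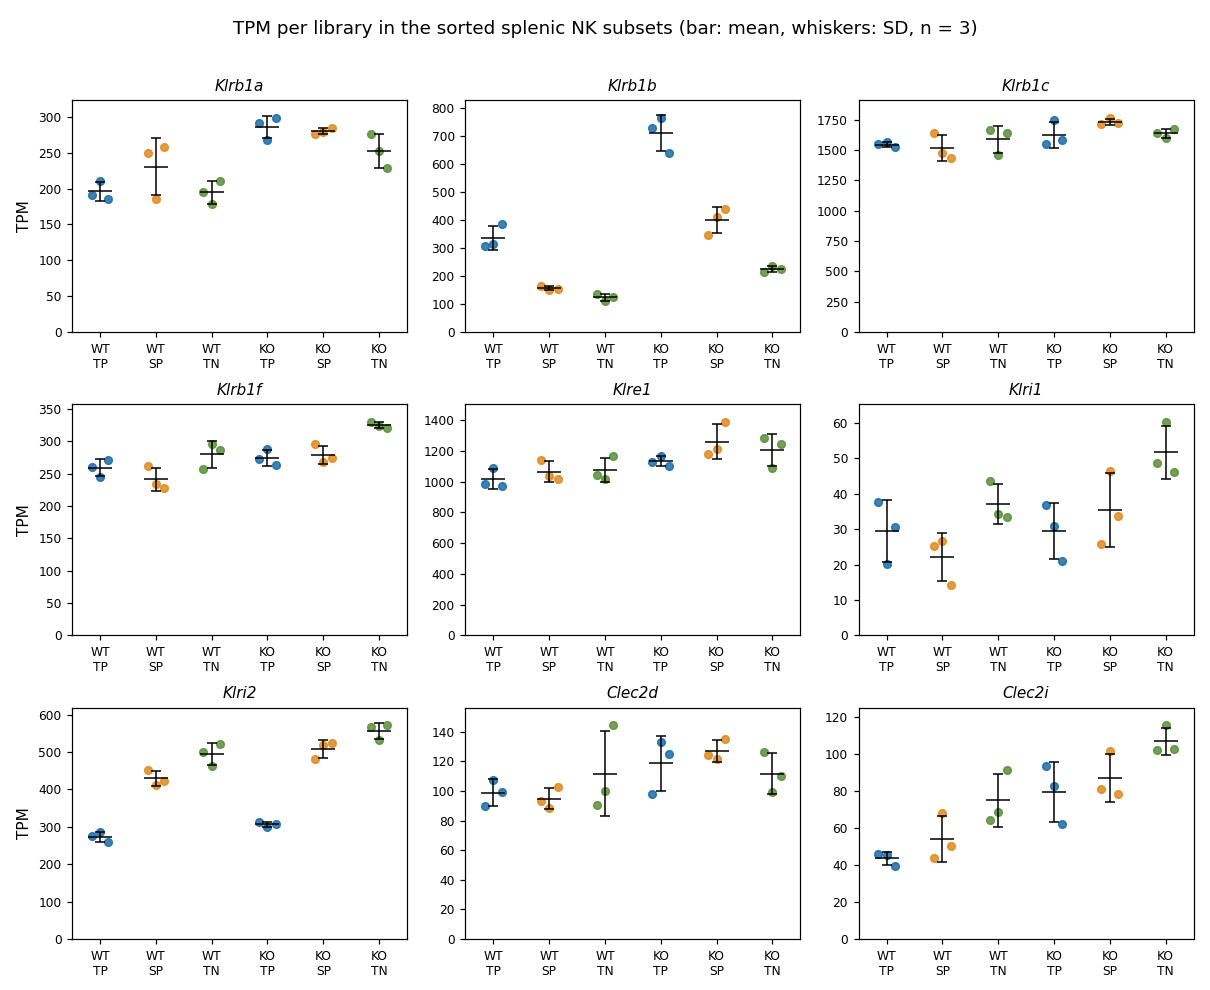
TPM of each of the 9 genes (vertical axes, each from 0) in the 3 libraries of the 6 sorted subsets, with the mean as a bar and the SD as whiskers. Klrb1b steps down from TP to TN in both genotypes, from 336 ± 43.0 to 123 ± 13.3 TPM in WT, while Klri2 steps up, from 273 ± 13.1 to 494 ± 29.3 TPM.

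The other NKR-P1 genes did not pass the test between subsets. Klrb1c, which encodes NK1.1, was the most abundant member, and its mean ranked 33 to 51 among all genes above 0 in the 6 sorted groups. Its TPM were 1548, 1563 and 1521 for WT TP, 1636, 1477 and 1432 for WT SP and 1661, 1462 and 1635 for WT TN. These libraries overlapped, and the WT TN to TP difference was 0.04 (95% interval -0.098 to 0.17, adjusted p = 0.878). Klrb1a had 192, 211 and 186 TPM for WT TP, 249.8, 185 and 258 for WT SP and 196, 178 and 210.2 for WT TN, with overlap among all 3 subsets. The WT TN to TP difference of Klrb1a was -0.01 (95% interval -0.25 to 0.23). Klrb1f, which encodes the receptor for Clr-g, had 272, 288 and 263 TPM in KO TP and 330.0, 323 and 321 in KO TN cells. These 2 groups did not overlap, but the difference of 0.24 missed the threshold (adjusted p = 0.385).

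The make-up of the NKR-P1 group differed between the sorted cells mainly in the shares of Klrb1b and Klrb1c. Klrb1b held 14.4 ± 1.67% of the summed TPM of the 4 NKR-P1 genes in WT TP (SD, n = 3), 7.27 ± 0.174% for WT SP and 5.64 ± 0.346% for WT TN. Without B2m it held 24.5 ± 1.35%, 14.8 ± 1.52% and 9.20 ± 0.513% in TP, SP and TN. Klrb1c held the largest share in all 6 groups, from 56.1 ± 1.36% in KO TP to 72.6 ± 1.20% in WT TN. Klrb1a stayed between means of 8.40% and 10.8%, and Klrb1f between 9.49% and 13.3%. The summed TPM of the 4 genes were 2335 ± 28.3 for WT TP, 2143 ± 146 for WT SP and 2184 ± 120.4 for WT TN. These shares and sums are descriptions and were not tested.

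**Figure D2:**
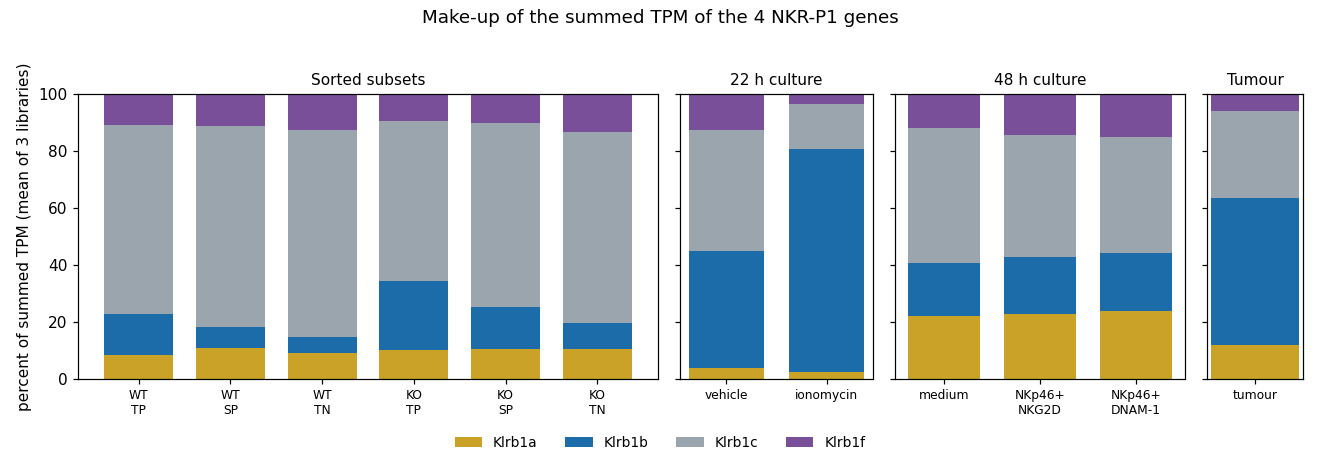
Mean percent of the summed TPM of the 4 NKR-P1 genes held by each gene (vertical axis, 0 to 100; n = 3 libraries per bar) in each group of each table. Klrb1c is the largest segment in all 6 sorted groups, and the Klrb1b segment runs from 5.64 ± 0.346% in WT TN cells to 78.5 ± 3.31% in ionomycin-treated cells, which come from another table, normalized separately.

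Of the KLRE and KLRI genes, Klri2, which encodes the chain without inhibitory motifs, rose from TP to SP and TN cells in both genotypes. Its TPM in WT mice were 274, 285 and 259 for TP, 453, 413 and 424 for SP and 500.4, 462 and 520.2 for TN. In KO mice they were 313, 299 and 307 for TP, 481, 520.0 and 525 for SP and 566, 533 and 571 for TN. All TP libraries lay below all SP and TN libraries of the same genotype, and SP and TN libraries did not overlap in either genotype. Klri2 rose by 0.86 in WT TN against TP (95% interval 0.71 to 1.00, adjusted p = 7.98e-07) and by 0.65 in WT SP against TP cells (adjusted p = 6.46e-05). In KO mice it rose by 0.86 in TN against TP (adjusted p = 1.17e-06) and by 0.73 in SP against TP cells (adjusted p = 1.77e-05). The smaller SP to TN steps of 0.20 in WT (adjusted p = 0.231) and 0.13 in KO (adjusted p = 1) did not pass.

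Klre1, the shared partner chain, had more TPM than either KLRI gene and did not pass the test between subsets. Its TPM were 987, 1091 and 974 for WT TP, 1142, 1039 and 1018 for WT SP and 1046, 1015 and 1164 for WT TN. These libraries overlapped, and the WT TN to TP difference was 0.08 (95% interval -0.093 to 0.25, adjusted p = 0.757). Klri1, the inhibitory partner, was the lowest of the 9 members, with 37.6, 20.2 and 30.7 TPM for WT TP, 25.3, 26.8 and 14.2 for WT SP and 43.6, 34.1 and 33.4 for WT TN. Its libraries spread widely within a group, and the WT TN to TP difference of 0.35 had a 95% interval of -0.24 to 0.95 (adjusted p = 0.661). In KO mice Klri1 had 36.7, 30.9 and 21.1 TPM in TP and 48.6, 60.2 and 46.1 in TN cells, without overlap, and the difference of 0.81 missed the threshold (adjusted p = 0.458). Per length, Klri2 exceeded Klri1 9.94 ± 3.64 times for WT TP, 21.1 ± 7.71 times for WT SP and 13.5 ± 2.06 times for WT TN (TPM per TPM, mean ± SD, n = 3). The opposite course of Klri2 and Klrb1b moved the ratio of their TPM from 0.823 ± 0.131 in WT TP to 4.03 ± 0.288 in WT TN cells, and from 0.434 ± 0.0441 to 2.49 ± 0.192 in KO cells. Over the 18 libraries, which share a batch and the TPM scaling, Klrb1b and Klri2 correlated at r = -0.532 as a description. The r was -0.545 over the 6 group means and 0.212 within groups, so the negative value restates the differences between groups.

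The Clr genes were present in NK cells themselves. Clec2d, whose product Clr-b is the ligand of NKR-P1B, had 89.8, 108 and 99.2 TPM for WT TP, 93.2, 88.7 and 103 for WT SP and 90.6, 100.03 and 144 for WT TN. The groups overlapped, and the WT TN to TP difference was 0.15 (95% interval -0.18 to 0.48, adjusted p = 0.766). Clec2i had 46.0, 45.7 and 39.7 TPM for WT TP, 44.0, 68.3 and 50.5 for WT SP and 64.5, 68.9 and 91.6 for WT TN. TN libraries all lay above TP libraries, and the difference of 0.75 lay at the threshold. Its adjusted p was 0.0553 with limma as described, and 0.0378 after median-of-ratios rescaling. In KO mice the TN to TP difference of Clec2i was 0.44 (adjusted p = 0.689). Of the 6 other Clr genes listed, 1, Clec2g, passed the minimum mean, and it was called in no comparison of sorted cells.

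Markers of other or less mature cells also moved between the subsets. Itga1, found on type 1 innate lymphoid cells, was 3.24 to 4.74 TPM in WT TP and 0 to 1.20 in WT TN cells, whereas Cd27, found on less mature NK cells, was 84.5 to 118 and 170.0 to 205 TPM. The 8 listed genes of immature NK cells or type 1 innate lymphoid cells summed to 165 to 216 TPM in WT TP and 228 to 265 TPM in WT TN libraries, with 0 of 8 and 1 to 2 of 8 at 0, and to 163 to 200.4 TPM in KO TP and 236 to 288 TPM in KO TN libraries. The 8 dendritic cell markers summed to 464 to 556 TPM in WT TP, 573 to 716 in WT SP and 861 to 882 in WT TN libraries. In the KO groups they summed to 344 to 404, 502 to 533 and 595 to 699.6 TPM in the same order. These sums ran with Klri2 in both genotypes, but single genes of the list did not all do so. Most of each sum was Itgax, which encodes the integrin CD11c and was called higher in TN against TP cells of WT (0.81, adjusted p = 5.32e-05) and KO mice (0.84, adjusted p = 6.22e-05). H2-Ab1, an MHC class II gene of the same list, was at most 8.23 TPM in any sorted library. Of the 3 dendritic cell genes tested, 1 was called in WT TN against TP cells, higher. In KO TN against TP cells 2 were called, 1 higher and 1 lower. The lowest difference of the list was -1.33 in WT and -2.7 in KO mice. The 8 macrophage or monocyte markers were higher in TP cells, as Klrb1b was, at 13.1 to 15.5 TPM in WT TP, 0 to 1.53 in WT SP and 0.310 to 7.38 in WT TN libraries, and at 23.9 to 58.1, 0.320 to 5.45 and 0.360 to 6.05 TPM in KO TP, SP and TN. The summed B or plasma cell markers were 167 to 181 TPM in WT TP and 281 to 337 TPM in WT TN libraries, whereas in KO mice they were 404 to 683 TPM in TP and 216 to 237 TPM in TN libraries. In WT TN most of the sum was Ighm, at 268 to 291 TPM. The part of these cells in the differences of Klrb1b and Klri2 was not tested.

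Loss of B2m went with higher Klrb1b in all 3 subsets. Its TPM in KO against WT libraries were 727, 763 and 639 against 308, 314 and 385 in TP cells. No KO library overlapped with a WT library of the same subset, in TP, SP or TN. Klrb1b rose by 1.08 on the log2(TPM + 1) scale for TP (95% interval 0.85 to 1.32, adjusted p = 1.69e-05), by 1.35 for SP (95% interval 1.11 to 1.58, adjusted p = 1.53e-06) and by 0.86 for TN (95% interval 0.63 to 1.10, adjusted p = 3.73e-04). KO SP cells, at 399 ± 47.2 TPM, lay near WT TP cells, at 336 ± 43.0 TPM, and this pair was not tested. The summed neutrophil markers were at most 5.85 TPM in the SP and TN libraries of both genotypes. Of 6 tested genes of immature NK cells or type 1 innate lymphoid cells, 1 was called lower in KO cells of each subset. The lowest differences of that list were -3.98 in TP, -3.97 in SP and -2.07 in TN, while 4, 3 and 5 of the 6 were positive. Of the 8 NK cell markers, 1 was called lower in KO TP and 1 in KO SP cells. Of 3 tested T cell markers, 1 was called higher in KO TP cells. The summed B or plasma cell markers were 197 to 226.9 TPM in KO SP against 181 to 191 in WT SP and 216 to 237 in KO TN against 281 to 337 in WT TN libraries, and the part of other cells in these differences was not tested.

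Klrb1a and Clec2i were also higher in KO TP cells, less firmly. Klrb1a had 292, 268 and 298 TPM in KO TP and 192, 211 and 186 in WT TP libraries, without overlap, a rise of 0.54 (adjusted p = 0.0186). Clec2i had 93.9, 82.9 and 62.2 TPM in KO TP and 46.0, 45.7 and 39.7 in WT TP libraries, without overlap, a rise of 0.83 (adjusted p = 0.0257). The call of Clec2i was lost with only these 2 groups in the fit (adjusted p = 0.0883) and without limma's intensity trend (adjusted p = 0.055), which also ended that of Klrb1a (adjusted p = 0.0662). Leaving out single libraries ended both calls. The call of Klrb1a was lost without WT TP 1 or 3 or KO TP 1 or 3, and that of Clec2i without any of the 3 WT TP libraries or KO TP 1 or 2. Over these 6 omissions the adjusted p was 0.0322 to 0.0906 for Klrb1a and 0.0138 to 0.15 for Clec2i. In SP cells Clec2i differed by 0.69 (adjusted p = 0.0806) and Klrb1a by 0.29 (adjusted p = 0.294). In TN cells Clec2i differed by 0.52 (adjusted p = 0.287) and Klrb1a by 0.37 (adjusted p = 0.204). The neutrophil and plasma cell markers of the KO TP libraries moved with the TP comparison, and their part in it was not tested.

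Members called in KO against WT cells numbered 3 in TP, where 1.59% of all genes were called. In SP 1 member was called, against 1.35% of all genes, and in TN 1, against 0.716%. Without WT SP 2, the SP count was 2, with Clec2i at an adjusted p of 0.0346. All 9 members had a positive difference in KO against WT in each subset, as did 55% of all genes in TP, 54.6% in SP and 53.4% in TN. An unadjusted p under 0.05 was reached by 4 members in TP, 9 in SP and 5 in TN, against 11.8%, 11.7% and 10.5% of all genes. In SP cells the KO and WT libraries of several members, Klrb1c and Klre1 among them, did not overlap although their differences did not pass. The share of all genes without such overlap was not counted, so this is not a result about the members. Klrb1c had 1717, 1761 and 1718 TPM in KO SP and 1636, 1477 and 1432 in WT SP cells, a difference of 0.20 (adjusted p = 0.182). Klre1 had 1180.3, 1211 and 1389 TPM in KO SP and 1142, 1039 and 1018 in WT SP cells, a difference of 0.24 (adjusted p = 0.209). Klri2 differed between genotypes by 0.17 for TP, 0.24 for SP and 0.17 for TN, and none of the 3 passed (adjusted p = 0.327, 0.109 and 0.372).

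Whether the subset differences depended on genotype was tested as an interaction. The limma interaction called 0 of the 9 members for TN against TP (background 0.025% of all genes), 0 for SP against TP (0.0166%) and 0 for TN against SP (0%). An unadjusted p under 0.05 was reached by 0, 0 and 1 members, and by 6.27%, 4.41% and 5.62% of all genes. The 1 was Klrb1b, whose TN minus SP difference was more negative in KO than in WT cells (interaction -0.49, 95% interval -0.82 to -0.15, unadjusted p = 0.00656, adjusted p = 0.827). For Klri2 the TN to TP interaction was 0.0024 with a 95% interval of -0.20 to 0.21.

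**Figure D3:**
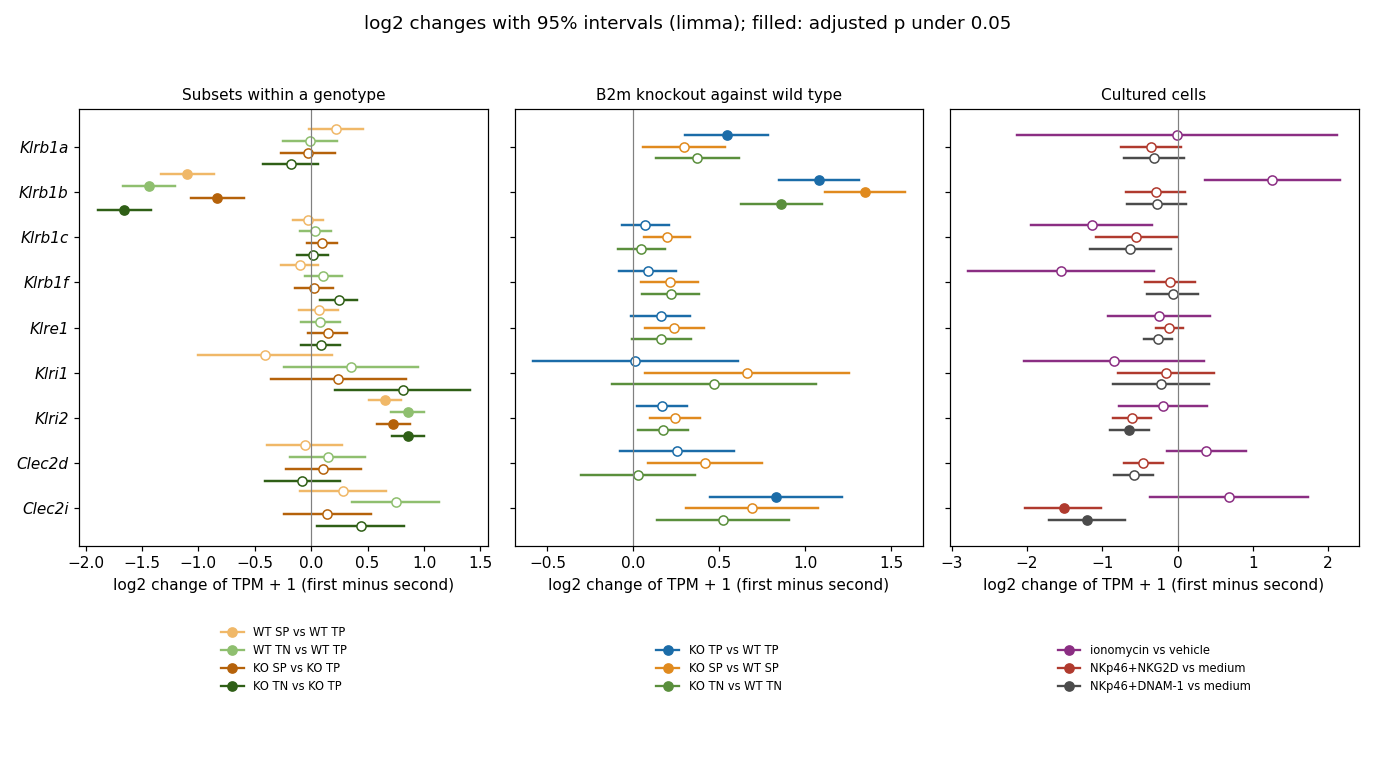
Difference of each gene on the log2(TPM + 1) scale (horizontal axes, first group minus second) with its 95% interval from limma, for subsets within a genotype, KO against WT, and the cultured cells. Filled points have an adjusted p under 0.05; Klrb1b in the first panel lies at -1.44 and -1.66 for TN against TP and Klri2 at 0.86 and 0.86, while Klrb1c stays near 0.

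Other lectin-like receptors of the same complex changed widely between subsets, the 3 receptors used in the sort among them. Of 24 listed genes, 18 could be tested, and in WT TN against TP cells 12 were called, 8 higher and 4 lower, with a median over the 18 of 0.61, beside -0.00951 over all genes. The lower ones were the sorted Klrc1 (NKG2A, -5.28), Klra3 (Ly49C, -6.60) and Klra9 (Ly49I, -3.53), and Klrg1 (-2.63), an inhibitory receptor of mature NK cells. The higher ones were Klra4 (2.08), Klra1 (1.90), Klra13-ps (1.85), Klra6 (1.58), Klra7 (1.47), Klra10 (1.43), Klrc2 (0.96) and Klra8 (0.87), so that Klri2, at 0.86, lay close to Klra8. In WT SP against TP 12 were called, 9 higher, namely Klra4 (1.59), Klra6 (1.45), Klra1 (1.32), Klra13-ps (1.15), Klra10 (1.01), Klrc3 (0.93), Klra7 (0.86), Klra8 (0.85) and Klrc2 (0.83), and 3 lower, Klra3 (-6.66), Klrc1 (-5.04) and Klrg1 (-0.84). In KO TN against TP 12 were called, 8 higher, namely Klra4 (2.11), Klra1 (1.51), Klra13-ps (1.36), Klra10 (1.13), Klrc2 (1.02), Klra8 (0.79), Klra7 (0.75) and Klrc3 (0.73), and 4 lower, Klra3 (-7.69), Klrc1 (-5.58), Klra9 (-2.97) and Klrg1 (-1.66). In KO SP against TP 7 were called, 4 higher, Klra4 (1.42), Klra10 (1.04), Klrc2 (0.92) and Klra13-ps (0.86), and 3 lower, Klra3 (-7.33), Klrc1 (-4.92) and Klrg1 (-0.78). In TN against SP cells, 4 were called in WT, Klra13-ps (0.70), Klra7 (0.61), Klrg1 (-1.79) and Klra9 (-3.47), and 3 in KO, Klra13-ps (0.50), Klrg1 (-0.88) and Klra9 (-3.03). In KO against WT cells, 3 were called in TP, Klra7 (0.99), Klra13-ps (0.44) and Klrg1 (-1.61), 2 in SP, Klra7 (0.49) and Klrg1 (-1.55), and 2 in TN, Klra9 (0.92) and Klrg1 (-0.63). Genes of the Ly49 family are near-identical copies, so their single values are uncertain.

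Of the 15 listed signalling partners of these receptors, all could be tested. Ptpn6 encodes SHP-1, the phosphatase that inhibitory receptors such as NKR-P1B recruit. Its level was 133 to 164 TPM in WT TP, 119.8 to 192 in WT SP and 266 to 357 in WT TN libraries, and 328 to 376, 289 to 328 and 271 to 363 TPM in the KO subsets. Ptpn6 rose by 1.02 in WT TN against TP (adjusted p = 0.00209), by 1.11 in WT TN against SP (adjusted p = 0.00356), by 1.23 in KO against WT TP (adjusted p = 2.38e-04) and by 1.15 in KO against WT SP cells (adjusted p = 6.16e-04). In WT mice Klrb1b and Ptpn6 moved in opposite directions from TP to TN, and in KO against WT TP and SP cells both rose. The kinase gene Fyn rose by 0.27 in WT TN against TP cells (adjusted p = 0.0347), and Tyrobp, which encodes the adaptor DAP12, fell by 0.30 in KO against WT TP cells (adjusted p = 0.0214). No other of the 15 was called in the sorted subsets.

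The genes whose levels followed each member most closely over the 18 sorted libraries were found by Pearson's r of log2(TPM + 1) among 11017 named genes, as a description. For Klrb1b they were Gramd3 (r = 0.982), Abcb1a (r = 0.897) and Itga1 (r = 0.881). For Klri2 they were Klra10 (r = 0.965), Klrc2 (r = 0.965) and Klra13-ps (r = 0.955), 3 further genes of the NK gene complex. Clec2i was followed most closely by Bcl2 (r = 0.928), Sla (r = 0.913) and Ust (r = 0.863), and Klrb1a by Serpinb9b (r = 0.876), Ppia (r = 0.855) and Itga4 (r = 0.854). The closest to Klrb1c were Sptlc1 (r = 0.871), Clec2g (r = 0.836) and Laptm4a (r = 0.834), and to Klrb1f Jmy (r = 0.809), Prpf6 (r = 0.799) and Ywhaq (r = 0.793). The closest to Clec2d were Hnrnpc (r = 0.867), Jade3 (r = 0.774) and Fam110b (r = 0.765), to Klre1 Gpr171 (r = 0.858), Hnrnph1 (r = 0.844) and Hnrnpa2b1 (r = 0.821), and to Klri1 Cxadr (r = 0.79), L3mbtl3 (r = 0.79) and Zfp759 (r = 0.78). The libraries share a batch and the groups, so genes that differ between the same groups correlate.

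In NK cells kept for 22 h, no member passed the test between ionomycin and vehicle, and the vehicle libraries spread widely. The largest differences were in the inhibitory Klrb1b, higher in the ionomycin mean, and the activating Klrb1c and Klrb1f, both lower in it. Klrb1b had 793, 793 and 939 TPM with ionomycin and 209.5, 292 and 704 with vehicle. The groups did not overlap, and vehicle 3 lay far above vehicle 1 and 2. Klrb1c had 199, 174 and 131 TPM with ionomycin and 206, 506 and 471 with vehicle, and Klrb1f had 29.3, 33.0 and 49.0 TPM with ionomycin against 40.8, 157 and 193 with vehicle. For both genes vehicle 1 lay near the ionomycin libraries and vehicle 2 and 3 well above them. The differences were 1.26 for Klrb1b (95% interval 0.36 to 2.16, adjusted p = 0.157), -1.14 for Klrb1c (95% interval -1.95 to -0.34, adjusted p = 0.151) and -1.55 for Klrb1f (adjusted p = 0.216). With limma, 0 of the 9 members were called among 14372 genes tested, against 2.91% of all genes. An unadjusted p under 0.05 was reached by 3 members and by 15.1% of all genes. The 418 calls over all genes became 635, 143 or 712 without vehicle 1, 2 or 3 and 80, 49 or 43 without ionomycin 1, 2 or 3. Without vehicle 1 the count of members was 3, with Klrb1c at an adjusted p of 0.0104, Klrb1f at 0.00806 and Klrb1a at 0.047, all lower with ionomycin. Without vehicle 3 it was 1, Klrb1b, at a difference of 1.76 and an adjusted p of 0.00514.

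The remaining members overlapped between ionomycin and vehicle. Klrb1a had 26.6, 20.9 and 23.9 TPM with ionomycin and 3.13, 58.2 and 61.9 with vehicle, so that vehicle 1 lay below and vehicle 2 and 3 above all ionomycin libraries. Its difference was -0.01 with all libraries and -1.31 without vehicle 1. Klri2 had 231, 251 and 219 TPM with ionomycin and 184, 325 and 316 with vehicle, and Klre1 had 399, 345 and 298 TPM against 258, 483 and 554. For Klri2 and for Klre1 the lowest and highest vehicle libraries enclosed all 3 ionomycin libraries. Clec2d had 95.99, 119.8 and 118 TPM with ionomycin and 72.6, 99.7 and 84.1 with vehicle, and Clec2i had 82.9, 63.1 and 99.0 TPM against 22.3, 71.1 and 77.0. Klri1 had 9.30, 9.10 and 4.79 TPM with ionomycin and 23.8, 7.95 and 14.8 with vehicle. Among these 6 genes the vehicle 1 library was the lowest vehicle library except for Klri1, where it was the highest. Klrb1b held 78.5 ± 3.31% of the summed NKR-P1 TPM with ionomycin and 41.2 ± 10.9% with vehicle. The summed NKR-P1 TPM were 1071 ± 64.7 and 967 ± 487. The Gm44511 model that shares sequence with Klrb1b was at 139 to 225 TPM with ionomycin and 86.4 to 205 TPM with vehicle, and the sum of both was 1038 ± 35.2 and 550.1 ± 320 TPM (SD, n = 3). The NK cell markers summed to 6263 to 8101 TPM with ionomycin and 8573 to 15561 TPM with vehicle, and neutrophil markers to 0 to 121 and 0 to 385 TPM. Their part in these differences was not tested.

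Several signalling partners did pass in this table. Of 15 tested, 7 were called, 6 lower and 1 higher, against 2.91% of all genes. The median over the 15 was -0.78, beside -0.00443 over all genes. Whether these 7 calls hold without single libraries was not tested. The calls over all genes fell to 80, 49 or 43 without ionomycin 1, 2 or 3. The lower ones were Fcer1g, the gamma chain through which NKR-P1C signals (-1.44, adjusted p = 0.0124), Plcg2 (-1.75), Syk (-1.57), Cd247 (-1.51), Vav1 (-1.17) and Tyrobp (-0.88). The higher one was the kinase gene Zap70 (1.95, adjusted p = 0.00367). Of the 18 lectin-like receptor genes tested, 1, Klrg1, was called (-4.23, adjusted p = 0.0197).

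In NK cells kept for 48 h, Clec2i was lower with either antibody pair than in medium, and Klri2 was lower with the pair against NKp46 and DNAM-1. Clec2i had 123, 98.8 and 74.5 TPM in medium, 36.1, 39.3 and 25.7 with NKp46 and NKG2D antibodies and 49.6, 38.7 and 36.8 with NKp46 and DNAM-1 antibodies. All antibody libraries lay below all medium libraries. Clec2i fell by 1.52 with the NKG2D pair (95% interval -2.02 to -1.01, adjusted p = 0.0203) and by 1.21 with the DNAM-1 pair (95% interval -1.71 to -0.70, adjusted p = 0.0447), 2 comparisons that share the medium libraries. Klri2 had 405, 404 and 394 TPM in medium, 257, 304 and 233 with the NKG2D pair and 261, 281 and 231 with the DNAM-1 pair, again without overlap with medium. It fell by 0.64 with the DNAM-1 pair (adjusted p = 0.0378), and its difference of -0.61 with the NKG2D pair did not pass (adjusted p = 0.0639). Of the 9 members, 1 was called with the NKG2D pair, against 0.431% of 13689 genes tested, and 2 with the DNAM-1 pair, against 0.782%.

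These calls depended on single libraries and were made with the column groups. Each group given by the sample titles held 1 library of each column group, all of the same number. A difference between column groups could therefore not show in a fit of the title groups, which cannot test these calls. With the groups given by the sample titles in place of the column names, 0 members were called with either pair. Clec2i then differed by -0.18 with the NKG2D pair (adjusted p = 0.992) and by -0.53 with the DNAM-1 pair (adjusted p = 0.747), and Klri2 by 0.11 and -0.12. With the column groups, the Clec2i call for the NKG2D pair was lost without medium 1 or without antibody library 1 or 3, over an adjusted p of 0.0125 to 0.0834 for the 6 omissions. For the DNAM-1 pair the calls of Clec2i and Klri2 were both lost without medium 1, medium 2 or any 1 antibody library. Over the omissions, the adjusted p was 0.0203 to 0.199 for Clec2i and 0.0346 to 0.16 for Klri2. Without medium 3 the count was 2 for the NKG2D pair, with Klri2 added, and 3 for the DNAM-1 pair, with Clec2d added. The number of all genes called, 59 with the NKG2D pair and 107 with the DNAM-1 pair, rose to 311 and 604 without medium 3 and was 0 and 1 with the title groups. Without medium 2 it was 97 with the NKG2D pair. Without antibody library 1, 2 or 3 it was 31, 37 or 31 with the NKG2D pair and 45, 26 or 30 with the DNAM-1 pair. The column names open with WT1, WT2 or WT3 in each of the 3 groups. The labels do not say whether such a number marks a mouse. With the number as a replicate block, Klri2 (adjusted p = 0.0204) and Klrb1c (adjusted p = 0.0453) also passed for the NKG2D pair, and Klrb1c (adjusted p = 0.0202) and Clec2d (adjusted p = 0.031) for the DNAM-1 pair. Over all genes, this block gave 239 calls with the NKG2D pair and 528 with the DNAM-1 pair. Antibody libraries also had more genes above 0, 16107 to 18096 against 13555 to 14674 in medium, and the 8 listed genes of epithelium or stroma summed to 178 to 185 TPM with the NKG2D pair and 159 to 191 with the DNAM-1 pair, against 91.7 to 124 in medium. Most of these sums was Pecam1, which encodes the adhesion molecule CD31 and rose by 0.77 (adjusted p = 0.0292) and 0.74 (adjusted p = 0.0325), while Krt8 was at 0 in all 9 libraries. The part of these differences in the calls was not tested.

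With the column groups, all 9 members had a negative difference with each antibody pair against medium, as did 54% of all genes with the NKG2D pair and 53.7% with the DNAM-1 pair. With the title groups, 5 members were positive with the NKG2D pair, namely Klrb1f (0.14), Klri2 (0.11), Clec2d (0.0653), Klrb1a (0.0435) and Klri1 (0.0181), and with the DNAM-1 pair Klri1 was positive (0.0982). None of these passed the test. Clec2d had 232, 200.4 and 206 TPM in medium, 152, 171 and 142 with the NKG2D pair and 131, 155 and 140.1 with the DNAM-1 pair, without overlap with medium. Its differences of -0.46 (adjusted p = 0.134) and -0.58 (adjusted p = 0.055) did not pass. Klrb1c had 1496, 1435 and 1185 TPM in medium, 1151, 1093 and 644 with the NKG2D pair and 1019, 1059.7 and 637 with the DNAM-1 pair. Library 3 was the lowest in each of these 3 groups, and no antibody library reached the medium libraries. Klrb1b, by contrast, overlapped between medium (626, 491 and 511 TPM) and both antibody groups (432, 546 and 364 TPM and 508, 487 and 356 TPM). Its differences were -0.29 (95% interval -0.68 to 0.10) and -0.28 (95% interval -0.67 to 0.11). Gm44511 was at 113 to 211 TPM in medium, 136 to 175 TPM with the NKG2D pair and 127 to 174 TPM with the DNAM-1 pair. Klrb1a was higher in this table than Klrb1b, at 636 ± 30.1 TPM in medium, 509 ± 129 with the NKG2D pair and 516 ± 78.8 with the DNAM-1 pair (SD, n = 3). Klrb1f had 344 ± 60.8, 318 ± 33.5 and 327 ± 42.7 TPM in the same order, Klre1 had 625 ± 41.3, 579 ± 6.55 and 521 ± 36.0 TPM, and Klri1 had 25.1 ± 6.71, 22.0 ± 1.96 and 21.8 ± 7.12 TPM. The medium libraries of Klre1, at 587.6 TPM or more, lay just above its antibody libraries, at 585.5 TPM or less. Between the 2 antibody pairs limma called 0 of the 9 members, against 0.0146% of all genes. An unadjusted p under 0.05 was reached by 0 members and by 1.22% of all genes. For Clec2i the difference between the pairs was 0.31 (95% interval -0.19 to 0.81), and for Klri2 -0.03 (95% interval -0.29 to 0.22).

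Among the other lectin-like receptor genes, Cd69, which lies directly after Clec2d in the gene order and encodes an early activation antigen, fell by 1.53 with the NKG2D pair (adjusted p = 0.0171) and by 1.31 with the DNAM-1 pair (adjusted p = 0.0337). Klrd1, which encodes CD94, the partner of NKG2A, fell by 0.35 with the DNAM-1 pair (adjusted p = 0.0481). These were 1 of 18 tested genes called with the NKG2D pair and 2 of 18 with the DNAM-1 pair. Of the 15 signalling partners, limma called 0 with either pair, and 3 had an unadjusted p under 0.05 in each comparison. Of all genes, 15.1% had one with the NKG2D pair and 18% with the DNAM-1 pair.

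**Figure D4:**
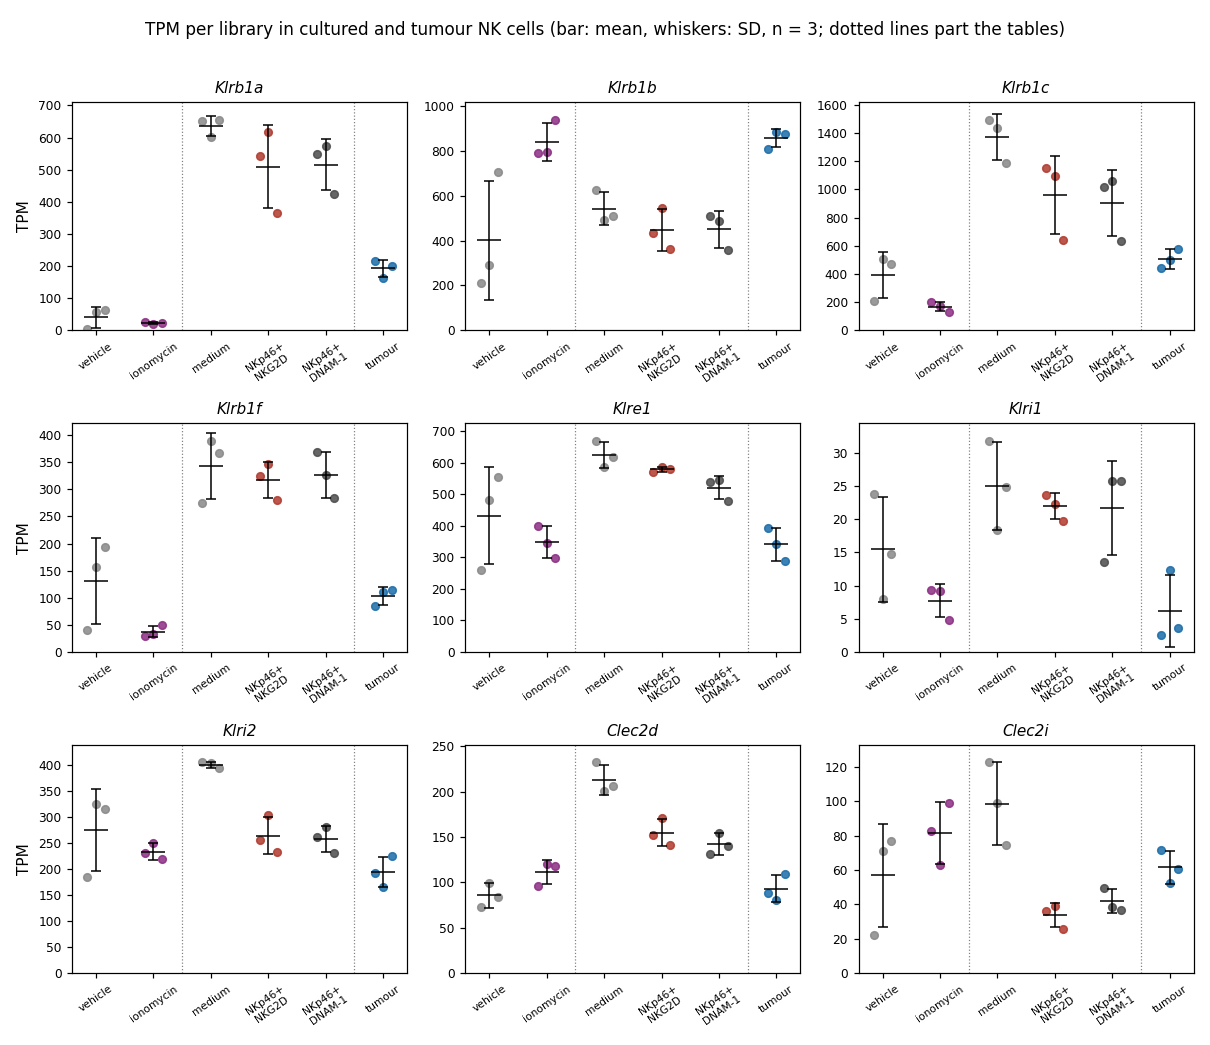
TPM of each gene (vertical axes, each from 0) in the 3 libraries per group of the ionomycin, antibody and tumour tables, parted by dotted lines, with the mean as a bar and the SD as whiskers. Klrb1b in vehicle spans 209.5 to 704 TPM, and levels on either side of a dotted line come from separate tables. All medium libraries lie above the antibody libraries for Clec2i, Klri2, Klrb1c, Clec2d and Klre1. The share of all genes parted in this way was not counted.

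In NK cells from tumours, which had no control group in their table, the inhibitory Klrb1b was the most abundant of the 9 members. Its TPM were 809.8, 885 and 877 in the 3 libraries, a mean of 857 ± 41.3 (SD, n = 3). Klrb1c followed at 439.6, 498 and 578 TPM, and Klre1 at 394, 341 and 287 TPM. All 3 Klrb1b values lay above all Klrb1c values, and the lowest Klrb1c value lay above the highest Klre1 value. Klrb1a was at 193 ± 27.0 TPM and Klri2 at 195 ± 29.0 TPM, a pair whose libraries overlapped. Klrb1f (102 ± 16.4 TPM), Clec2d (92.9 ± 14.8 TPM) and Clec2i (61.5 ± 9.54 TPM) came next, with Klrb1f overlapping Clec2d and every Clec2i library below both. Klri1 was lowest, at 2.48, 12.4 and 3.64 TPM. Klrb1b held 51.8 ± 2.03% of the summed NKR-P1 TPM, and the ratio of Klri2 to Klrb1b TPM was 0.227 ± 0.0353. Gm44511 was at 166 to 257 TPM in these libraries. Genes of tumour epithelium or stroma summed to 128 to 1022 TPM across the 3 libraries, and their part in the levels was not tested. The titles describe these cells as CD27-CD11b+ NK cells and the genotype label reads WT, while the column names carry a B2m knockout and SP tag, and B2m was 3929 to 5196 TPM in them.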

How the data were processed

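RNA-seq was done on NK cells from spleen or tumour. The authors deposited 4 tables of TPM per gene, made with STAR and RSEM on GRCm39, per the submitters' processing notes; tool versions and the annotation are not given in the sources used here. The authors' TPM carry no counts, so the depth of each library is unknown. Groups came from the labels, and for the antibody table from the column names that the labels give. The labels call samples biological replicates.

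Values were fitted on log2(TPM + 1), which understates changes of low genes, for every gene whose mean over the table's libraries reached 1 TPM, with limma 3.58.1 (intensity trend) in R 4.3.3. All groups of a table entered 1 fit, without a replicate block. Tests were two-sided, and p-values were adjusted by Benjamini-Hochberg over all genes tested in each of 16 comparisons. The scripts were tested on simulated data. Deviations of same-numbered libraries correlated weakly (mean r = 0.0104, 0.062 and 0.0639 in the subset, ionomycin and antibody tables). For libraries of different numbers the mean r was -0.00517, -0.031 and -0.032. Deviations were taken from group means, so these values are largely fixed by the first ones and add no separate evidence. The labels do not say whether same-numbered libraries share a mouse, so numbers were not taken as pairs.

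The 9 members, the gene lists and the comparisons were chosen with earlier results of these data known. All members were named, as were called genes of 2 lists (other lectin-like receptors and signalling partners) and, for each member, the 3 genes most correlated over 18 libraries. Alternatives were other pseudocounts, filters, scalings and fits, omission of each library, and title-based groups. Sequences came from RefSeq (GRCm38.p6), while the files used GRCm39, so no position of the files is given.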

Additional observations from a re-analysis of the deposited data

How the results depend on the processing

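The calls of Klrb1b and Klri2 between TP and SP or TN cells, and of Klrb1b between genotypes, held under all 14 alternatives each. Without limma's intensity trend, 0 members were called in KO TN against SP, 1 in KO against WT TP, and 0 with either antibody pair. With the compared groups alone, 0 were called in KO TN against SP, 2 in KO against WT TP (Clec2i was lost) and 0 with either antibody pair. No filter on low values gave 0 with either pair. The groups from the titles, each of which mixes 1 library of every column group, also gave 0 with either. With them Klri2 was reversed to 0.11, and Klrb1a, Klrb1f, Clec2d and Klri1 also turned positive for the NKG2D pair, as did Klri1 for the DNAM-1 pair. A replicate block gave 3 calls for the NKG2D pair (Klrb1c, Clec2i, Klri2) and 4 for the DNAM-1 pair (these and Clec2d). Deviations of same-numbered libraries there correlated at a mean r of 0.0639. The block changed no other count of members. Leaving out 1 library at a time gave 1 to 2 calls in KO against WT TP (1 without WT TP 1, WT TP 3 or KO TP 1), 1 to 2 in KO against WT SP, 0 to 3 with ionomycin, 0 to 2 with the NKG2D pair and 0 to 3 with the DNAM-1 pair. The number of all genes called moved with them too: against 191 it was 108 to 151 in KO against WT TP, against 162 it was 88 to 163 in SP and against 86 it was 52 to 114 in TN. Klrb1a with ionomycin was reversed to 0.0685 with a pseudocount of 0.1 and to 0.0299 with median-of-ratios rescaling, and ranged from -1.31 to 0.66 over omitted libraries. The cause of these shifts was not tested. Rescaling moved the median of all genes by less than 0.1. With no counts deposited, counting error could not be given, and levels of a few TPM, such as Klri1 in tumours, are the least certain.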
